A study of Rattus norvegicus with 31 samples.

Results

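The comparison described here sets CR-L rats, given leptin while they suckled, against CR rats, which had the same mothers' food restriction and no leptin. It was chosen by sample title and holds 24 of the 31 samples of a rat series, 13 titled CR-L and 11 titled CR. The 7 WT samples took no part in the difference between the groups. All samples are PBMC, short for peripheral blood mononuclear cells, which are mainly lymphocytes with some monocytes.

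Both groups were offspring of dams whose food was cut by 20% on days 1 to 12 of gestation. CR-L pups received leptin up to postnatal day 21, in 20 doses that ran from 1.0 to 43.8 ng and summed to 311 ng, set by the labels at 5 times the amount taken with milk. CR pups suckled normally, and both groups later ate freely until blood was taken at 4 months. The labels speak of offspring of both sexes, give neither sex nor litter per sample, and name 16 mated dams, so that some of the 24 samples may share a mother. P-values below treat the samples as independent.

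Leptin is a hormone of fat cells that also reaches the pup in milk. Its receptor, encoded by Lepr, signals through the kinase JAK2 and the transcription factor STAT3, which induces SOCS3, an inhibitor of the same receptor. In blood, leptin is known to act on T cells and monocytes. The cells measured here came from adult rats, long after the last dose.

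Each array held 1 sample in red (Cy5) and, in green (Cy3), a common pool of equimolar RNA, for which 5 samples of each group had been drawn at random. Each value is the log2 ratio of a sample to that pool, and a difference is the mean of CR-L minus the mean of CR. An array's median red intensity was 77.7 to 93.9 in CR-L and 69.8 to 89.5 in CR. The share of red spots well above background lay between 58.8% and 64.4% in CR-L and between 57.5% and 64.4% in CR. Log2 red intensities of any 2 of the arrays correlated at 0.947 to 0.994. All 8 slides held arrays of both groups.

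No transcript passed the test for a difference between CR-L and CR. Of 20898 features (1 probe per gene, or a probe with no gene name), 0 were called higher and 0 lower at an adjusted p of 0.05, a share of 0%, by limma with Benjamini-Hochberg adjustment. The smallest adjusted p was 0.9997, and without adjustment the smallest p was 0.000612. At an unadjusted 0.05, 451 features (2.16%) passed, 236 of them higher in CR-L (1.13%) and 215 lower (1.03%). In no feature did the values of the 2 groups fail to overlap (0%), and the difference was above 0 in 9996 features (47.8%).

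The group accounted for a median of 1.66% of a feature's variation over the arrays. A term of 1 degree of freedom takes 4.35% on average where there is only noise. That figure is a mean of skewed shares, whose median lies lower, so the median of 1.66% was not read as below noise. Of the 20854 features measured in both groups on all 8 slides, 42 (0.201%) were higher in CR-L on every slide and 48 (0.230%) were lower on every slide.

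The same fit gives the size of change that the arrays exclude, on the scale of these log ratios. An offset of 50 was added to the intensities, which draws the ratios of dim probes toward 0. A change in RNA may thus be larger than the fold printed. The 95% confidence interval of CR-L minus CR lay wholly within 0.25 of 0 on the log2 scale, a 1.19-fold change in either direction, for 17501 features (83.7%). It lay within 0.5, or 1.41-fold, for 20242 (96.9%) and within 1, or 2-fold, for 20774 (99.4%). The limit of the interval farther from 0 had a median of 0.16 (1.12-fold) and a 99th percentile of 0.84 (1.79-fold).

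These intervals hold for 1 feature at a time. Widened over all 20898 features (Bonferroni), they lay within 0.25 for 777 features (3.72%), within 0.5 for 15588 (74.6%) and within 1 for 19861. An equivalence test, with 2 one-sided moderated tests against each bound and Benjamini-Hochberg adjustment, placed 18219 features (87.2%) inside 0.25, 20405 (97.6%) inside 0.5 and 20808 (99.6%) inside 1. Observed differences were smaller than these limits, with a median size of 0.0366 (1.03-fold) and a 95th percentile of 0.14 (1.10-fold). With the scanner's log ratio in place of these values, the 95% interval lay within 0.5 for 16190 features (77.5%).

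**Figure D1:**
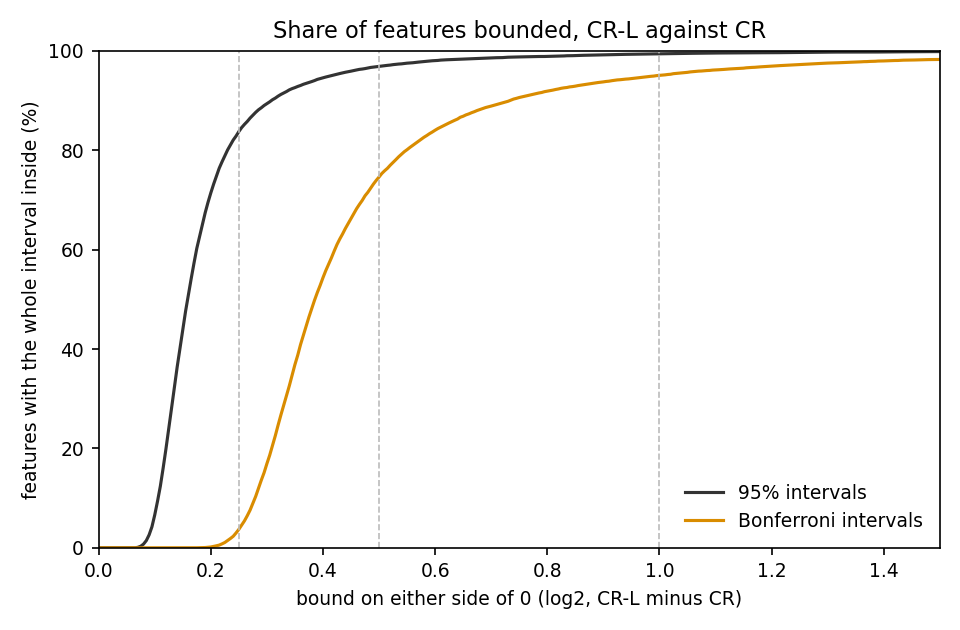
The share of 20898 features (y axis, %) whose whole interval for CR-L minus CR lies inside a bound on either side of 0 (x axis, log2), for 95% intervals and for intervals widened by Bonferroni over all features. Dashed lines mark bounds of 0.25, 0.5 and 1, and at 0.5 the curves stand at 96.9% and 74.6%.

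Samples varied more between arrays than the pool did. Over the 24 arrays the median SD of a feature was 0.160 in the red channel and 0.0755 in the green channel, each quantile normalized, and the red SD was the larger in 94.4% of features. The median SE of a difference was 0.0571 on the log2 scale.

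The leptin receptor itself could not be read. Lepr has 2 probes on the array, and both were well above background on 0 of 13 CR-L and 0 of 11 CR arrays. Of the 23 genes listed for leptin receptor and JAK-STAT signalling, 22 were measured, all but Lepr. None of the 22 passed the test, and 0 had an unadjusted p under 0.05, where 2.16% of all features did. Differences were above 0 in 10 genes and below 0 in 12, with a median of -0.0076, beside -0.0028 over all features.

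For all 22 measured genes of leptin and JAK-STAT signalling the 95% interval lay within 0.5, and for 15 of them within 0.25. The farthest limit over the 22 genes was 0.46, in Ptpn1. On the scale of these log ratios, a change of 1.41-fold thus lies outside the 95% interval of each of them, taken singly.

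Stat3, the transcription factor that the leptin receptor activates, ran from 0.09 over a median of 0.24 to 0.50 in CR-L and from 0.06 over 0.26 to 0.38 in CR. The groups overlapped over nearly their whole range. The difference in Stat3 was 0.04 ± 0.05 (SE, n = 13 and 11), with a 95% interval from -0.07 to 0.15. Jak2, the kinase bound to the receptor, differed by -0.02 ± 0.05. Stat5a and Stat5b, which leptin can also activate, differed by 0.0014 ± 0.06 and by -0.03 ± 0.05.

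Among the inhibitors, Socs3 ran from -0.85 over 0.11 to 0.64 in CR-L and from -0.47 over -0.02 to 0.89 in CR. Its difference was -0.0018 ± 0.16, with an interval from -0.34 to 0.33. Socs1, a related inhibitor, had the lowest difference of the list, -0.14 ± 0.12, with values from -0.63 to 0.39 in CR-L and from -0.28 to 0.70 in CR. Cish, a STAT5 target of the same family, differed by -0.03 ± 0.07.

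Ptpn1 encodes the phosphatase PTP1B, which removes phosphate from JAK2 and from the insulin receptor. It had the highest difference of the list, 0.19 ± 0.13, with values from -0.34 over 0.20 to 0.70 in CR-L and from -0.88 over 0.05 to 0.34 in CR. Jak1 and Jak3, kinases of cytokine receptors in lymphocytes, both differed by 0.17, with SEs of 0.10 and 0.12. Leprot, whose human counterpart shares its first exons with LEPR and encodes another protein, differed by -0.01 ± 0.11. Values of both groups overlapped in all of these genes.

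**Figure D2:**
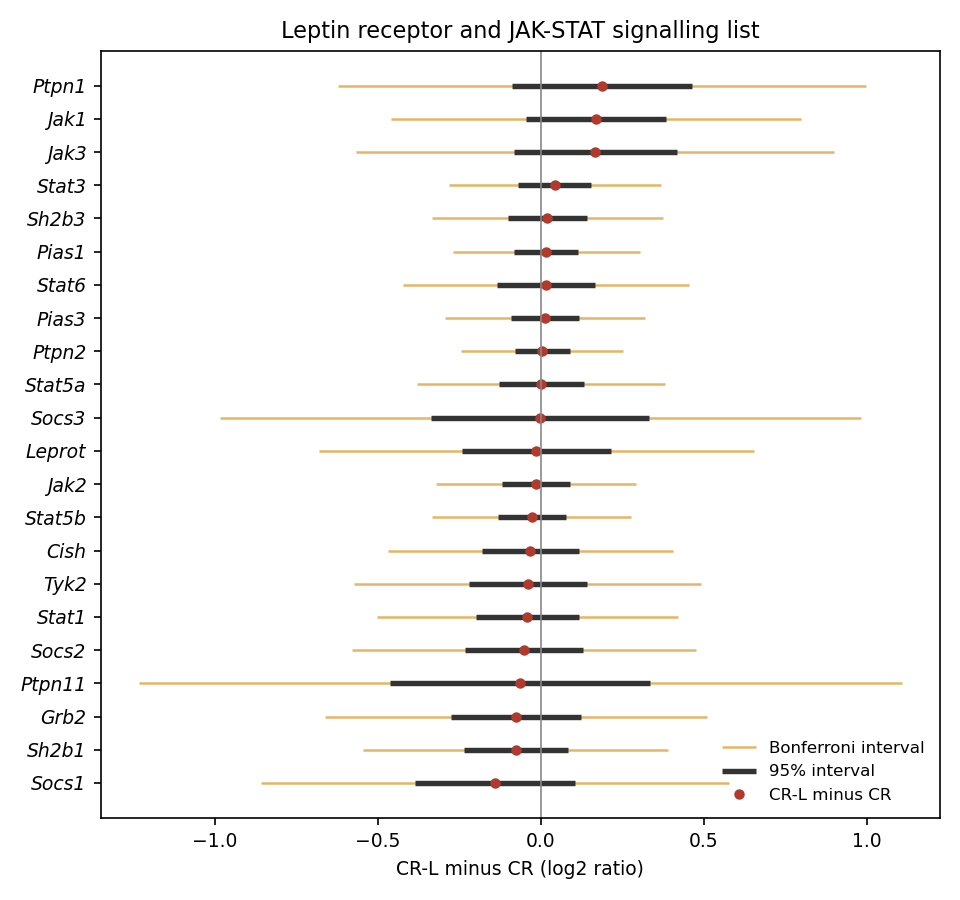
CR-L minus CR (x axis, log2 ratio) for the 22 measured genes of the leptin receptor and JAK-STAT list, with the 95% interval in dark and the Bonferroni interval in yellow. Differences run from -0.14 in Socs1 to 0.19 in Ptpn1, and every 95% interval contains 0.

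Insulin signalling and fatty acid oxidation genes gave no call. Of 28 measured insulin signalling genes, 10 differed upward and 18 downward, 0 had an unadjusted p under 0.05 and 27 had their interval within 0.5. Insr, the insulin receptor, differed by -0.05 ± 0.05, Foxo1, a transcription factor that insulin holds out of the nucleus, by -0.02 ± 0.07, and Irs2, an adaptor of the insulin receptor, by -0.12 ± 0.13. Of 19 fatty acid oxidation genes, all had their interval within 0.5, and Cpt1a, which carries fatty acids into mitochondria, differed by -0.06 ± 0.09.

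Of 24 measured lipogenesis and lipid uptake genes, 20 had their interval within 0.5. Fasn, the fatty acid synthase, differed by 0.05 ± 0.06 and Srebf1, a transcription factor of lipid synthesis, by 0.02 ± 0.06. Dgat2, which makes the last step to triglyceride, was the 1 gene of this list with an unadjusted p under 0.05. It ran from -0.28 over 0.10 to 0.97 in CR-L and from -0.45 over 0.03 to 0.38 in CR, with a difference of 0.26 ± 0.12 (unadjusted p = 0.0443, adjusted p = 0.9997, limma).

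The largest difference of any feature was in Slc27a2, which encodes a long-chain fatty acid transporter with acyl-CoA synthetase activity, and it was also among the least certain. Its values ran from -4.03 over -1.95 to 1.82 in CR-L and from -3.77 over 0.09 to 1.57 in CR. They lay on both sides of a gap between -3.23 and -1.95, with 6 of 13 CR-L arrays and 2 of 11 CR arrays below it. The difference was -1.36 ± 0.74, with a 95% interval from -2.89 to 0.17 (unadjusted p = 0.0785, limma).

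A group mean says little for such a gene, since few arrays lie near it. Rpl13, a ribosomal protein gene, had the next largest difference downward among features with an established symbol, -0.70 ± 0.49. It ran from -2.90 over 0.43 to 0.72 in CR-L and from -2.72 over 0.46 to 0.68 in CR, so that the medians lie close together while the means do not. RT1-Bb, a class II antigen presentation gene, was below its own gap on 6 CR-L and 6 CR arrays.

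The genes named next had the smallest p among the 11031 features with an established symbol, not among all 20898. Their adjusted p was 0.9997 (limma) for each. Kcnab2, a beta subunit of voltage-gated potassium channels, ran from -0.17 over 0.05 to 0.41 in CR-L and from -0.45 over -0.19 to 0.17 in CR. Most CR-L arrays were above most CR arrays, and the ranges overlapped. The difference was 0.27 ± 0.08 (unadjusted p = 0.00165) and was positive on 6 of 8 slides, and 1 other probe of the gene differed in the opposite direction.

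Among features with an established symbol, Tlr1 and Tlr6 both stood in the 10 with the smallest p in the upward direction. They encode Toll-like receptors that pair with TLR2 on monocytes to recognise bacterial lipoproteins, and they are neighbours on chromosome 14. Tlr1 ran from -0.52 over -0.06 to 0.39 in CR-L and from -0.49 over -0.24 to -0.07 in CR, a difference of 0.25 ± 0.08 (unadjusted p = 0.00444). Tlr6 ran from -0.29 over 0.06 to 0.42 in CR-L and from -0.35 over -0.18 to 0.03 in CR, a difference of 0.21 ± 0.08 (unadjusted p = 0.0101).

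Both receptors were higher in CR-L on 8 of 8 slides, while the lowest single arrays of Tlr1 in both groups were close together. Their highest values were on CR-L arrays 3 and 7, at 0.25 and 0.39 for Tlr1 and at 0.42 and 0.40 for Tlr6. Those arrays also had the highest means of the monocyte markers, 0.38 and 0.31, and the lowest of the platelet markers, -2.67 and -2.22. Without CR-L arrays 3, 5 and 7, left out after the data were seen, the differences were 0.20 for Tlr1 and 0.16 for Tlr6. The part of these cells in the differences was not tested. The 2 probes are shown because the genes are close relatives. They are given 5′ to 3′ at their rn4 positions, chr14:46124542-46124601 (plus strand) for Tlr1 and chr14:46100547-46100606 (plus strand) for Tlr6, and capitals mark the longest run they share, 8 bases.
Tlr1: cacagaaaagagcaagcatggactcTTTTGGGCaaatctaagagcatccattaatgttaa
Tlr6: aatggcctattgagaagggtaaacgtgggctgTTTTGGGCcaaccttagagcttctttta

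The other members of the family were looked up after these values had been seen. Of 13 Toll-like receptor genes, 8 were measured, 7 of them above 0, with a median of 0.12. Tlr2, the shared partner of both, ran from -1.31 over -0.02 to 0.43 in CR-L and from -0.78 over -0.37 to 0.08 in CR, with a difference of 0.16 ± 0.16. Tlr4, the receptor of lipopolysaccharide, differed by 0.12 ± 0.06 (unadjusted p = 0.0567). Tlr3 differed by -0.0013 ± 0.08, and all 8 intervals lay within 0.5.

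Markers of monocytes, which carry these receptors, lay mostly on the same side of 0. Of 17 monocyte markers, a list that holds Tlr4, 12 differed upward and 5 downward, where 47.8% of all features were above 0. Their median was 0.09, with 0 at an unadjusted p under 0.05. The mean of the list differed by 0.05 and was higher in CR-L on 5 of 8 slides. In bulk RNA, more cells of a type and more RNA per cell cannot be told apart. T cell markers were above 0 in 6 of 23 and B cell markers in 3 of 17, with medians of -0.04 and -0.07.

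In the downward direction Smarcad1, a chromatin remodeller, ran from -0.25 over -0.03 to 0.05 in CR-L and from -0.06 over 0.09 to 0.20 in CR. Its difference was -0.13 ± 0.04 (unadjusted p = 0.00414) and was negative on all 8 slides, but another probe of the gene pointed the other way. Rpl17, a protein of the large ribosomal subunit, ran from -0.10 over 0.08 to 0.17 in CR-L and from 0.08 over 0.18 to 0.30 in CR. Its difference was -0.11 ± 0.03 (unadjusted p = 0.00493), also negative on all 8 slides.

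The remaining features with an established symbol nearest to the test in either direction differed by little. Upward they were Zfp483, Gnal, Nrros, H1f4, Tbc1d10b, Epha10 and Or5aq6, by 0.12 to 0.29. H1f4, a linker histone, differed by 0.29 ± 0.10. Downward they were Chrnb4, Tmed9, Ccdc117, Slc45a4, Hmgb3, Fbxo31 and C1qbp, by -0.20 to -0.08, and Nufip2, by -0.49 ± 0.17. None of them passed with adjustment.

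**Figure D3:**
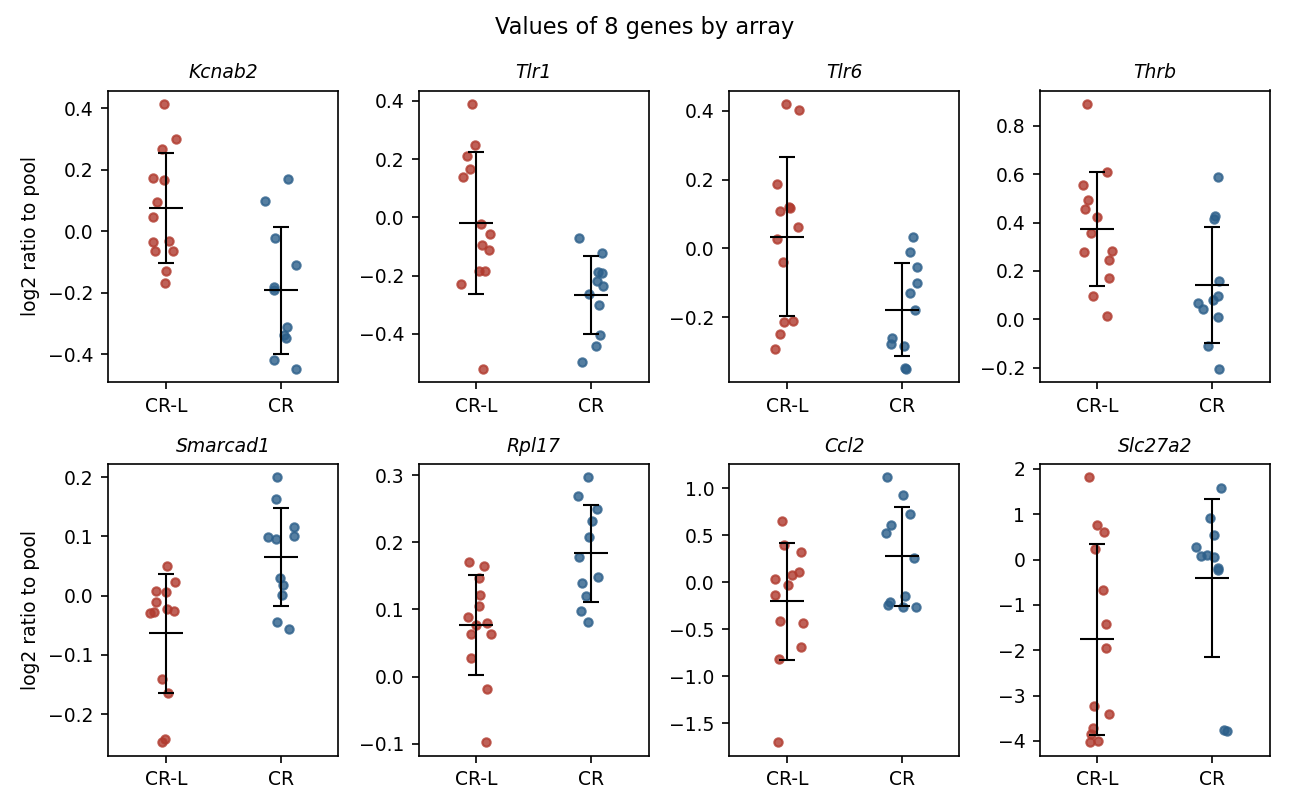
Log2 ratio to the pool (y axis) of 8 genes on each CR-L and CR array, with the mean and SD of each group. The groups overlap in every panel, and Slc27a2 spans -4.03 to 1.82 in CR-L alone.

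Cell type and stress lists gave no call either. Of 30 inflammatory and NF-kB genes 24 had their interval within 0.5, with 1 higher and 2 lower at an unadjusted 0.05. Over all features 96.9% had such an interval, 1.13% were higher and 1.03% lower. Ccl2, a chemokine that draws monocytes, ran from -1.70 over -0.04 to 0.65 in CR-L and from -0.27 over 0.25 to 1.12 in CR, a difference of -0.48 ± 0.22 (unadjusted p = 0.0402). Tnfaip3, an inhibitor of NF-kB, differed by -0.35 ± 0.17 (unadjusted p = 0.0446).

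Of 30 proliferation genes, 21 differed upward, and Ube2c, a mitotic ubiquitin-conjugating enzyme, differed by 0.45 ± 0.20 (unadjusted p = 0.0330). Ube2c stood highest on CR-L arrays 13 and 9, at 1.42 and 0.96, where Alas2, an enzyme of haem synthesis in red cells, stood at 1.86 and 1.44. It stood lowest on CR-L array 2 and CR array 4, and so did Alas2. The part of red cell RNA in this difference was not tested. Thrb, a thyroid hormone receptor, ran from 0.01 over 0.36 to 0.89 in CR-L and from -0.20 over 0.08 to 0.59 in CR. The difference was 0.23 ± 0.09 (unadjusted p = 0.0192), the 1 of 9 measured thyroid and sympathetic receptor genes past an unadjusted 0.05. Klrk1, which encodes the NKG2D receptor of natural killer cells, differed by 0.20 ± 0.09 (unadjusted p = 0.0291), the 1 such gene of 15 NK and cytotoxic markers.

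The bound was widest for genes of red cells and platelets, neither of which is a mononuclear cell. Only 9 of 29 erythroid markers and 4 of 16 platelet markers had their interval within 0.5, against 96.9% of all features. Erythroid markers were above 0 in 25 of 29, with a median of 0.27 and 3 higher at an unadjusted 0.05, where 1.13% of all features were, and their mean was higher in CR-L on 7 of 8 slides. Hba-a3 and Hbb-b1, globin genes, both differed by 0.99, with SEs of 0.52 and 0.57. Hbb, another globin gene, ran from -4.10 over 0.21 to 1.69 in CR-L and from -3.36 over -1.39 to 1.84 in CR, and was lowest on CR-L array 2 and CR array 4.

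In the main test, the spread between arrays differed where the means did not, in a small and closely related set of features. A Levene-type test, limma on each array's absolute deviation from its group mean, called 22 features with a larger spread in CR-L (0.105%) and 0 with a smaller one (0%), with a smallest adjusted p of 0.0381. At an unadjusted 0.05, 1267 features (6.06%) had the larger spread in CR-L and 392 (1.88%) the smaller. The calls depend on single arrays: without any 1 of CR-L arrays 3, 5, 7, 9 or 11, or of CR arrays 1, 2, 4, 5, 6, 7, 8 or 10, the count was 0. Without CR array 9 it was 1, without CR array 11 it was 6, without CR-L array 8 it was 34 and without CR-L array 12 it was 39. With deviations from the group median it was 0, with a smallest adjusted p of 0.969 (limma). In that setting 4.31% of features passed an unadjusted 0.05 in either direction.

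The excess over the whole table was small. The SD was larger in CR-L for 13505 features (64.6%), with a median SD of 0.147 in CR-L and 0.129 in CR and a median ratio of 1.15. On the log2 scale the median ratio was 0.20, with a jackknife SE over arrays of 0.137. It was 0.0818 without CR-L array 5, with 56.6% of features larger in CR-L, and 0.0652 with no filter on dim probes. It was 0.0867 without CR-L arrays 3, 5 and 7 and 0.117 with the mean of the platelet markers as a covariate, both chosen after the data were seen.

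Of the 22 called features, 15 are described on the array as glyceraldehyde-3-phosphate dehydrogenase (GAPDH) or similar to it. GAPDH is an enzyme of glycolysis whose gene has many processed pseudogenes in rodents. Another is F13a1, the A subunit of coagulation factor XIII, which is abundant in platelets and in some monocytes. The other 6 have no description on the array, and 5 of them share a run of 17 to 38 bases with a probe described as GAPDH.

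The called probes are therefore mostly readings of 1 family of sequences, shown here because the count of 22 turns on it. In 3 of the called probes, on 3 chromosomes, capitals mark a run of 27 bases that all of them hold, with sequences 5′ to 3′ and positions on rn4 at chr10:70055983-70056042 (plus strand), chr7:124294500-124294559 (minus strand) and chr14:43416213-43416272 (minus strand).
A_44_P263095: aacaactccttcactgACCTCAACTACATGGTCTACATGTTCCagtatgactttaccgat
A_44_P295565: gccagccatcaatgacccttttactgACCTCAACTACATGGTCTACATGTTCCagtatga
A_44_P107573: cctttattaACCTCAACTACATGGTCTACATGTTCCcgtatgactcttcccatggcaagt

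A called probe at chr13:101148774-101148833 (minus strand) and the probe for Gapdh-ps1, a GAPDH pseudogene, at chr3:40431200-40431258 (plus strand) share a run of 34 bases, again in capitals. Probes with such runs may bind the same transcript, so their calls were not read as separate results.
A_44_P203646: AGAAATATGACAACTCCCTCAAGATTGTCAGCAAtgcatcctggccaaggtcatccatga
Gapdh-ps1: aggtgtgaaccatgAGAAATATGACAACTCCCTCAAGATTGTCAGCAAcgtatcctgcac

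The first of these probes, A_44_P263095, shows the pattern. Its lowest values in CR-L were -1.21 on array 3, -1.14 on array 7, -0.99 on array 5, -0.94 on array 11 and -0.90 on array 9, and the other 8 CR-L arrays lay between -0.14 and 0.65. In CR it lay between -0.26 and 0.35. So 5 CR-L arrays were below every CR array, and CR-L arrays 13 and 4, at 0.65 and 0.57, were the highest of all. The SD was 0.691 in CR-L and 0.186 in CR, and the difference in means was -0.20 ± 0.20.

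Most probes of the GAPDH family had the wider spread in CR-L. Of 72 probes so described, 64 were among the features tested, for which 1 probe per gene was kept. The SD was larger in CR-L for 62 of them, with a median ratio of 3.09, beside 64.6% of all features. At an unadjusted 0.05, 58 had the larger spread in CR-L, beside 6.06% of all features. The 64 probes were gathered after the calls had been seen, and they were not read as separate results. Shared runs were measured only for the 22 called probes, and in A_44_P262490 the longest was 13 bases. The 64 were thus not shown to be 1 signal. Gapdh, at the brightest of its probes (chr4:161282440-161282609 on rn4, minus strand), had an SD of 0.548 in CR-L and 0.179 in CR. Its values ran from -0.95 over 0.15 to 0.76 in CR-L and from -0.23 over 0.02 to 0.33 in CR.
Gapdh: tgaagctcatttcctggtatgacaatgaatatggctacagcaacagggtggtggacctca

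A_44_P263095 and Gapdh parted most on CR-L array 5. They parted by less on other arrays, such as CR-L array 11, at -0.94 and -0.40, and CR array 11, at 0.22 and -0.09. On CR-L array 5 A_44_P263095 stood at -0.99 but Gapdh itself at 0.20, above the median of its group, whereas on arrays 3 and 7 both were low. Ldha, the lactate dehydrogenase A subunit, and Pgk1, phosphoglycerate kinase, had their lowest values on that same array, at -1.05 and -1.01. Aldoa, an aldolase, stood at -0.92 and Tpi1, triose phosphate isomerase, at -0.60 there, while Eno1, an enolase, stood at 0.33.

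Glycolysis as a list, drawn up after these values were seen, was less uneven. Of 18 genes 17 were measured, with the SD larger in CR-L for 15, a median ratio of 1.50, 5 past an unadjusted 0.05 and 0 called, beside 64.6% of all features with a larger SD and 6.06% past an unadjusted 0.05. Pgk1 had the clearest excess, with an SD of 0.392 in CR-L and 0.0899 in CR (unadjusted p = 0.000242 for spread, limma). Its values ran from -1.01 over -0.05 to 0.28 in CR-L and from -0.25 over -0.09 to 0.03 in CR.

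F13a1 ran from -2.54 over 0.03 to 0.58 in CR-L and from -0.43 over -0.10 to 0.67 in CR, with SDs of 1.07 and 0.353. Its lowest CR-L arrays were 3, 7, 11, 5 and 9, the same 5 that were low in A_44_P263095. Its probe lies at chr17:34260252-34260311 (plus strand, rn4) and shares no run longer than 10 bases with a probe described as GAPDH.
F13a1: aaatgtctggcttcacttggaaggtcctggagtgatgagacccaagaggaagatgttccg

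Platelet markers, a list that holds F13a1, varied with these features. Of 16 measured platelet markers, 16 had a difference below 0, with a median of -0.40 and 0 past an unadjusted 0.05. Over all features 47.8% of differences were above 0. The spread was larger in CR-L at an unadjusted 0.05 for 12 markers, beside 6.06% of all features. The median SD ratio was 2.56, beside 1.15. The mean of the 16 markers was -2.67 on CR-L array 3, -2.22 on array 7, -0.99 on array 11 and -0.83 on array 9. It was -0.31 on CR-L array 5 and -0.17 to 0.66 on the other CR-L arrays, against -0.49 to 0.70 in CR. The WT arrays, which were not in the fit, ran from -1.43 to 0.28.

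Myl9 and Treml1, a myosin light chain and a platelet receptor, were separated from all other arrays on CR-L arrays 3 and 7. Over arrays, the median of the GAPDH family tracked the platelet mean with a Pearson correlation of 0.944 over 13 CR-L arrays and 0.786 over 11 CR arrays, given as a description of values that share each array. Among named genes outside the family, those most like its median over the 24 arrays were Ilk (0.972), P2rx1 (0.971), Gmpr (0.963), Alox12 (0.962) and Arhgef12 (0.962). P2rx1 encodes an ATP receptor of platelets, Alox12 the platelet 12-lipoxygenase and Ilk a kinase of integrin signalling.

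With the mean of the platelet markers added to the fit as a covariate, 0 features were called for spread, and with the GAPDH family entered as 1 feature the count was 0 as well (smallest adjusted p = 0.0882, limma). Both settings were chosen after the data were seen, and the platelet list holds F13a1, itself among the called features. The count also fell to 0 without single arrays, so a count of 0 here cannot decide on platelets. Whether platelets carried over with the cells made the difference in spread was not tested.

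**Figure D4:**
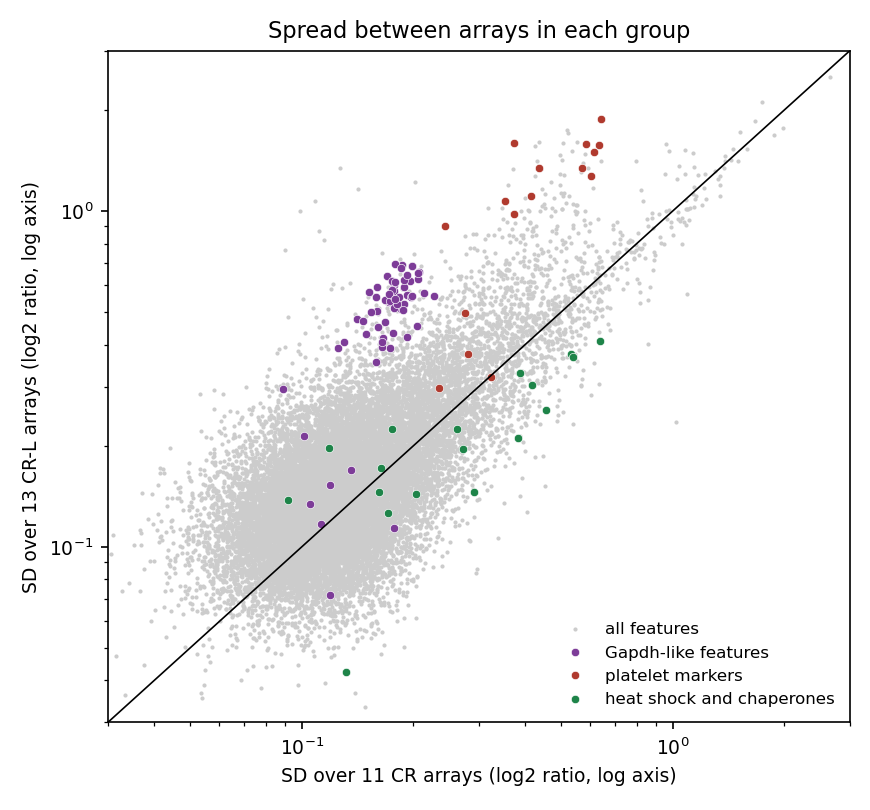
The SD of each of 20898 features over the 13 CR-L arrays (y axis) against that over the 11 CR arrays (x axis), both log axes in log2 ratio units, with equality as a line. GAPDH-like features and platelet markers lie mostly above the line, with median ratios of 3.09 and 2.56, and heat shock genes mostly below it.

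Other genes with a wide spread in CR-L did not pass with adjustment. Nufip2, an RNA-binding protein gene, ran from -1.47 over -0.06 to 0.51 in CR-L and from -0.01 over 0.25 to 0.46 in CR, with SDs of 0.585 and 0.120. Rac1, a small GTPase of the cytoskeleton, had SDs of 0.775 in CR-L and 0.284 in CR, and Fasn 0.183 in CR-L and 0.0768 in CR. In the leptin and JAK-STAT list the SD was larger in CR-L for 15 of 22 genes, with a median ratio of 1.28 and 3 genes past an unadjusted 0.05. Over all features the SD was larger in CR-L for 64.6%, and 6.06% passed with the larger spread in CR-L.

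A few transcripts had a wide spread through 1 array. Ccne2, cyclin E2, stood at 3.63 on CR-L array 9 and at 0.19 or below on every other array. Sirt4, a mitochondrial sirtuin, stood at 3.15 on CR-L array 2 and at 0.21 or below on every other array. Atp5f1d, an ATP synthase subunit, stood at 2.82 on CR-L array 5 and at 0.31 or below elsewhere. These 3 genes were picked after their values were seen.

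Heat shock genes had the smaller SD in CR-L for 14 of 18 measured members, with a median ratio of 0.723, but 1 passed an unadjusted 0.05 for a smaller spread, where 1.88% of all features did, and 0 were called. The mean of the list ran from -0.17 to 0.38 in CR-L. In CR it was 0.64 on array 3, 0.36 on array 1 and -0.21 to 0.11 on the other arrays. Lgals1, which encodes the lectin galectin-1, had SDs of 0.149 in CR-L and 0.268 in CR, and C5h1orf50 had 0.0334 in CR-L and 0.148 in CR. Neither was called.

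Over all features, CR-L arrays lay farther from each other. The root mean square distance of an array to the mean of the other arrays of its group was 0.237 ± 0.0488 in CR-L and 0.196 ± 0.0277 in CR on the log2 scale (SD, n = 13 and 11). The difference was 0.0410 (p = 0.0214, two-sided permutation test over samples). CR-L ranged from 0.133 to 0.318 and CR from 0.148 to 0.223, so that the ranges overlap and CR-L also holds the array nearest to its group.

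The highest distances were 0.318 on CR-L array 5 and 0.309 on CR-L array 3. Without CR-L arrays 3, 5 and 7 the difference was 0.0196 (p = 0.201), and with the platelet markers' mean as a covariate it was 0.00413 (p = 0.818), both by the same permutation test. Both settings were chosen after the data were seen. Measured as 1 minus the correlation the groups differed by 0.0658 (p = 0.310). The green pool's distance was 0.109 in CR-L and 0.105 in CR (p = 0.670, permutation test).

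**Figure D5:**
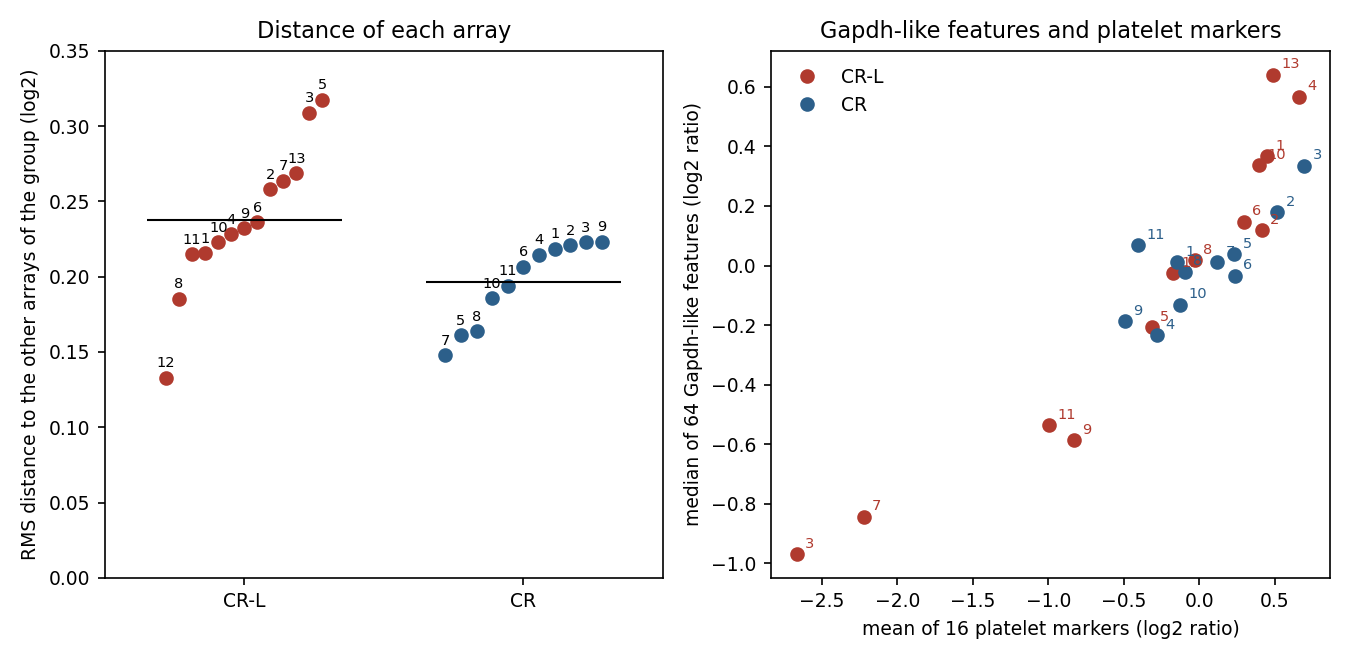
Left, the root mean square distance of each array to the other arrays of its group (y axis, log2), with replicate numbers and the group mean as a line. Right, the median of 64 GAPDH-like features (y axis, log2 ratio) against the mean of 16 platelet markers (x axis, log2 ratio), where CR-L arrays 3 and 7 stand lowest on both.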

How the data were processed

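The authors deposited spot and local background intensities of each 2-colour array. They were read with Agilent Feature Extraction, whose version the submitters' processing notes give as 10.7.3.1. The same deposited files hold a log10 ratio of red to green, detrended for background and normalized for dye per the file headers, which served as an alternative. So did the deposited table of log2 values, which tracked the log2 red intensity (lowest correlation 0.993). Its first column has a median of 8.17, and its other steps are not given in the sources used here. With no dye swap, a dye effect common to all arrays cancels between groups.

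Each array had 45018 spots, 1639 of them controls. Outlier values (5483, or 0.408%) were left out. Mean intensities were corrected by normexp with an offset of 50, then normalized by loess within each array, with limma 3.58.1 in R 4.3.3. A probe was kept if its red signal was well above background on 11 or more of the 24 arrays (25204 of 41012), and the brightest probe stood for its gene, which gave 20898 features, 11031 of them with an established symbol. Symbols were updated by accession (18971 probes), by an accession in the description (218), by current symbol (2995) or by older symbol (203). Another 1009 probes kept the file's name and 17616 had none. Positions are those of the files, on rn4.

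Differences were tested with lmFit and eBayes on the 24 arrays, two-sided, at a Benjamini-Hochberg adjusted p of 0.05. Spread was tested in the same way on absolute deviations from the group mean, and distances by a permutation test with 100000 resamples. Scripts were tested on simulated data. Among features with an established symbol, named genes are the 10 per direction with the smallest p, the 6 with the largest difference and the 8 with the smallest p for spread. Named genes also include the 10 such features with the largest SD, the leptin and JAK-STAT list, and up to 6 of each other list. The members and lists were chosen with earlier results of these data known, and the GAPDH, glycolysis and Toll-like receptor lists were added after the values above were seen.

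Alternatives covered background correction, normalization, channel, the authors' table, the filter, probes per gene, slide, replicate number, array weights, moderation, blood cell lists and each array left out. The number of arrays limits the precision.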

Additional observations from a re-analysis of the deposited data

How the results depend on the processing

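No feature was called for a difference under any of the 17 alternatives tried, nor without any single array. The share past an unadjusted 0.05 ran from 1.28% to 3.62%. The count of features with a 95% interval within 0.5 was 34228 of 34890 with no filter on dim probes and 16190 of 20898 (77.5%) with the scanner's log ratio. Leaving out single arrays gave 20128 to 20338. In results for 208 named genes, 0 were called under any alternative, but 35 had a difference of the other sign without some array, and 29 without CR-L arrays 3, 5 and 7.

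The calls for spread held less well. Their count was 7 without background correction, 0 with the scanner's log ratio, 0 when scaled between arrays, 0 in the red channel alone, 7 with no filter on dim probes, 0 with slide as a fixed block, 0 with squared deviations and 0 with deviations from the median. With slide as a block, the residuals of both groups on a slide depend on each other, so the 0 there cannot decide on spread. The count was 33 by the F ratio of variances, 22 in the authors' table and 16 with every probe as a feature. Chosen after the data were seen, leaving out CR-L arrays 3, 5 and 7 gave 0, the platelet mean as a covariate gave 0 and the GAPDH family as 1 feature gave 0. Leaving out single arrays gave 0 to 39. The cause was not tested.

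The difference in distance was 0.0352 (p = 0.524) when scaled between arrays, 0.0196 (p = 0.201) without CR-L arrays 3, 5 and 7, 0.00413 (p = 0.818) with the platelet covariate and 0.0658 (p = 0.310) as 1 minus correlation, all by permutation tests. Leaving out single arrays gave 0.0341 to 0.0513, with a highest p of 0.0523 (permutation test). The median log2 ratio of SDs stayed above 0, from 0.0652 to 0.281, and from 0.0818 to 0.230 without single arrays.

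CR-L and CR share 11 replicate numbers, whose paired deviations correlated at -0.437 to 0.456 (median 0.0432), with 1 CR-L array closest to its own number, so that the numbers were not taken to pair the samples. With replicate number as a block the count of features called was 0 and that of intervals within 0.5 was 20126. No such fit was made for spread, SD ratio or distance, since the residuals of a pair mirror each other. The planned covariate Xist was not run, since no probe of it was measured. Signal also limits the arrays, with 57.5% to 64.4% of an array's red spots well above background.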

Other observations

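Of 24 measured DNA methylation and chromatin modifiers, 24 had a 95% interval within 0.5 and 21 within 0.25, close to the shares over all features (96.9% and 83.7%), with 13 differences above 0 and 11 below. Dnmt3a, which sets new DNA methylation, averaged 0.19 in CR-L and 0.06 in CR, a difference of 0.13 ± 0.08 (SE) with an interval from -0.03 to 0.29. Chd1, a chromatin remodeller bound to active genes, differed by 0.13 ± 0.06 (unadjusted p = 0.0437, adjusted p = 0.9997, limma). All 16 measured clock genes also had their interval within 0.5, with 8 above 0 and 8 below. Of 44 oxidative phosphorylation genes 43 did, the exception being Atp5f1d, which was high on 1 CR-L array.

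Ribosomal protein genes lay mostly below 0, in 61 of 78, with 7 past an unadjusted 0.05 in that direction and 1 in the other. Over all features 47.8% of differences were above 0, and 1.03% were lower and 1.13% higher at an unadjusted 0.05. The sizes were small, with a median of -0.04, and 77 of 78 intervals lay within 0.5. Rpl38 ran from -0.14 over -0.0019 to 0.20 in CR-L and from 0.03 over 0.13 to 0.21 in CR, a difference of -0.10 ± 0.04 (unadjusted p = 0.0155). Cholesterol genes lay mostly above 0, in 22 of 28, with 0 past an unadjusted 0.05 and a median of 0.03. Nr1h3, the sterol receptor LXR-alpha, differed by 0.23 ± 0.14. Of 22 interferon response genes 17 had their interval within 0.5, and Rsad2, an antiviral gene, had the widest one, from -0.42 to 1.81, with its lowest values on CR-L array 2 and CR array 4.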
